A study of Mus musculus with 22 samples.

Results

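The 10 genes described here are Nfkb1, Nfkb2, Rel, Rela and Relb, which encode the 5 subunits of the transcription factor NF-kB, and the inhibitors and regulators Nfkbia, Nfkbie, Nfkbiz, Bcl3 and Tnfaip3. They were picked by symbol from the 24982 genes in each table, all 10 had counts, and all 10 passed the filter on low counts, which kept 12387 of the 16619 genes with at least 1 count. They were measured by RNA-seq in bone marrow eosinophils of C57BL6 wild type mice, sorted into 4 stages of maturation from I, the earliest, to IV. Every mouse received recombinant IL-33, an alarmin cytokine that raises eosinophil numbers, as a daily intraperitoneal dose of 400 ng on 7 days. From the last of these doses on, mice were given 3 daily injections of 400 µg of either an antibody that neutralizes IL-5 (anti-IL5) or its control isotype. Each antibody had 3 libraries per stage, and 2 at stage II, for 22 libraries in 8 groups. No group without IL-33 is among them, so all values come from IL-33-treated marrow, and the labels do not say whether a library came from 1 mouse or a pool, or whether libraries with equal numbers share a mouse.

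NF-kB acts as a pair of subunits. In a resting cell the pairs of p65 (Rela), c-Rel (Rel) and p50 (Nfkb1) are held in the cytoplasm by IkB proteins such as IkB-alpha (Nfkbia) and IkB-epsilon (Nfkbie), and receptors for IL-33, IL-1, TNF and microbial products release them by driving IkB degradation. A second, slower route processes p100 (Nfkb2) to p52, which pairs with RelB. IkB-zeta (Nfkbiz) and Bcl-3 (Bcl3) work in the nucleus on p50 and p52, and A20 (Tnfaip3) is a ubiquitin-editing enzyme that shuts the signal off. Several of these genes are themselves known NF-kB targets, which gives the system its feedback. mRNA levels, which are what was measured, show neither where the proteins are nor whether they are active.

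Promoter windows of 300 bases, from 250 before to 50 after an annotated start, were taken from RefSeq (GRCm38.p6) and matched 7 of the 10 genes by symbol, with 10 windows, 3 of them for Nfkb2, 2 for Tnfaip3 and 1 for each other gene. The first windows of Nfkb2 and Nfkbia are shown because their genes moved in opposite directions during maturation and that of Tnfaip3 because its stage IV libraries did not overlap between the antibodies. Capitals mark matches to the kappaB consensus, the general binding motif of NF-kB, on either strand, with overlapping matches joined. The sequences are given 5′ to 3′ on the gene's strand.
Nfkb2, chr19:46304487-46304786, plus strand: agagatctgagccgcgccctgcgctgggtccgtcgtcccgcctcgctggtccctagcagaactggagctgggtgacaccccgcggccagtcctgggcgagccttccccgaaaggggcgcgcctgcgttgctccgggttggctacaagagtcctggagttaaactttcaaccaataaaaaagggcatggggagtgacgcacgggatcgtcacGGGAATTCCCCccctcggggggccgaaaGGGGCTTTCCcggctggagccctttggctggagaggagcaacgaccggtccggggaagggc
Nfkbia, chr12:55492598-55492897, minus strand: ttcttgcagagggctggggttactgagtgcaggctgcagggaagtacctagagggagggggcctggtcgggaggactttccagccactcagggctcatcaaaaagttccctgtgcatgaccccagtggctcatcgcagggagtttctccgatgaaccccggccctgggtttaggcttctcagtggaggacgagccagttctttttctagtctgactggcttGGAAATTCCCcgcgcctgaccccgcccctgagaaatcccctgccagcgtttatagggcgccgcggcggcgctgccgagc
Tnfaip3, chr10:19015361-19015660, minus strand: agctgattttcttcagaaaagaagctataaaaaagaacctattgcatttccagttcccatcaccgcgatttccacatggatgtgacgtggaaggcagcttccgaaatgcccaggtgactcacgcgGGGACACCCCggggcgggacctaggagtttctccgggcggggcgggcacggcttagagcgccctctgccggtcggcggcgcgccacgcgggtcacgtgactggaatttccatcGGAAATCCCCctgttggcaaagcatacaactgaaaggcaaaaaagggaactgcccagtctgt
The Nfkb2 window holds the consensus at position 212 of 300, as GGGAATTCCC, which reads the same on both strands, and again at position 240 as GGGGCTTTCC. The Nfkbia window holds it once, at position 222, as GGAAATTCCC on the gene's strand. Tnfaip3 has GGGACACCCC at position 126 and GGAAATCCCC at position 239 of the window shown, and no match in its other window. The other windows of Nfkb2 hold matches too, at positions 15 and 261 of the second and at position 26 of the third, where the last 2 are the same site in overlapping windows. The consensus was found in 8 of the 10 windows and in 6 of the 7 genes with a window (Nfkb2, Rel, Nfkbia, Nfkbie, Bcl3 and Tnfaip3, but not Rela), and in 4.51% of all 32851 windows of this length in the table. These are letters in a window and not measured binding. Of the 6 genes with a match, Nfkb2, Nfkbie, Bcl3 and Tnfaip3 rose from stage I to IV under both antibodies. Nfkbia fell under both. Rel fell in isotype libraries, and its change under anti-IL5 was also downward but did not pass. Rela, the only gene with a window and no match, rose under both. Whether matches bear on the direction of change was not tested.

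Libraries held 7161264 to 14781250 gene counts and 12359 to 13829 genes with a count. Levels are CPM, counts scaled to a common library size after TMM normalization, on which 3 counts equal 0.222 to 0.411 CPM. Differences are log2 fold changes ± SE from 1 edgeR quasi-likelihood fit of all 22 libraries. A gene is said to have risen or fallen where its Benjamini-Hochberg adjusted p over all tested genes was under 0.05. Cells carrying Ly6G, CD90.2, NK1.1 or CD45R were removed before sorting, and the labels put sort purity at 95% or above. All 13 eosinophil marker genes had counts in every group, with a summed level of 44600 to 51900 CPM at stage I and 13200 to 14900 CPM at stage IV in isotype libraries. The 11 neutrophil genes also had counts in every group and their sum went from 2190 to 2870 CPM at stage I to 6700 to 10600 at stage III and 4870 to 5890 at stage IV, with Ly6g between 0.517 and 45.4 CPM over all libraries. The sum of 9 monocyte and macrophage genes went from 929 to 1470 CPM at stage I to 2410 to 3280 at stage IV. Sums over all libraries were 104 to 2050 CPM for 9 basophil and mast cell genes, 5.07 to 5340 for 4 azurophil progenitor genes, 9.44 to 68 for 7 B lineage genes, 5.53 to 72.9 for 6 dendritic genes, 0.8 to 36.5 for 7 erythroid genes (hemoglobin genes at 0) and 0 to 1.89 for 8 T, NK and innate lymphoid genes (Cd8a and Ncr1 at 0). The part of these other cell types in the results below was not tested, and in sorted bulk samples fewer cells of a type and less RNA per cell cannot be told apart.

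From stage I to stage IV 7 of the 10 genes climbed under both antibodies, and Nfkbia fell under both. Rel fell in isotype libraries, with a lower value under anti-IL5 that did not pass. In isotype libraries 7 of the 10 genes rose over the whole maturation (Nfkb1, Nfkb2, Rela, Relb, Nfkbie, Bcl3 and Tnfaip3), where 32.3% of all tested genes did, and 2 fell (Rel and Nfkbia), where 33.9% did. Under anti-IL5 the counts were 7 higher, against 30.7% of all genes, and 1 lower (Nfkbia), against 32.8%. The risers were the same 7 genes under both antibodies, and Nfkbia fell under both. The median change of the 10 genes was 1.86 in isotype libraries (all genes -0.045) and 1.38 under anti-IL5 (all genes -0.058). Nfkbiz passed in neither direction over the whole course. Of all genes, 39.1%, 52.5% and 46.8% had no overlap between adjacent stages in isotype libraries, in order of the steps. Under anti-IL5 the shares were 41.3%, 58.6% and 41.8%. Between stages I and IV they were 73.8% and 70.2%, so lack of overlap between stages was common.

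**Figure D1:**
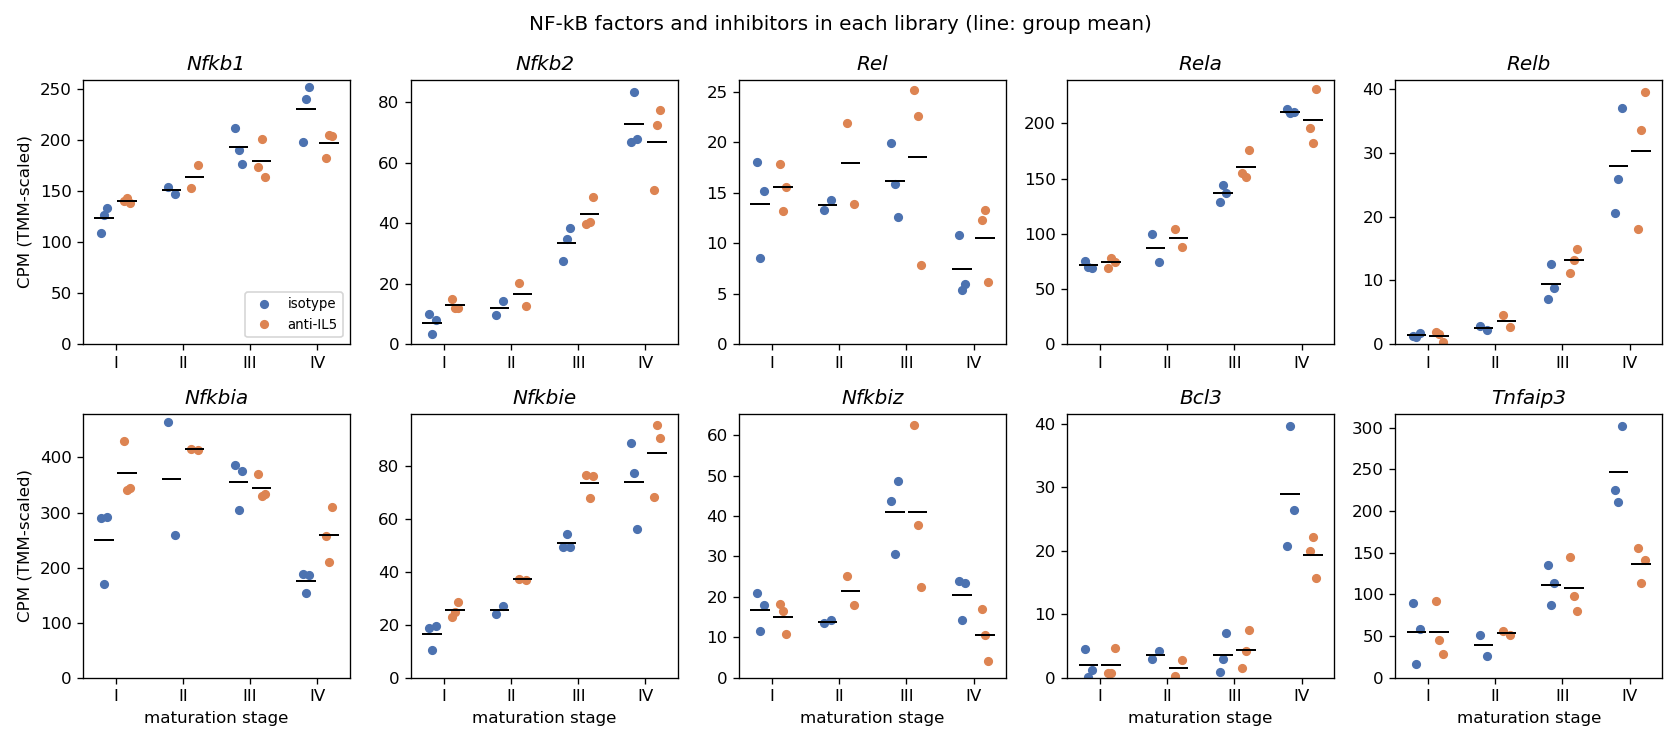
TMM-scaled CPM of each of the 10 genes (vertical axis, linear from 0 and scaled per panel) in every library by maturation stage (horizontal axis), with isotype libraries in blue, anti-IL5 libraries in orange and a black line at each group mean. Under each antibody, Nfkb1, Nfkb2, Rela, Relb and Nfkbie have a higher mean at each later stage. Bcl3 stays at or under 7.57 CPM until stage IV under both. Nfkbiz has its highest means at stage III, and Nfkbia and Rel have their lowest means at stage IV.

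Nfkb2 (chr19:46304320-46312385, plus strand, GRCm38) encodes p100, the precursor of p52 and itself an inhibitor of RelB. Isotype libraries 1, 2 and 3 held 9.98, 3.33 and 7.83 CPM at stage I, libraries 1 and 2 of stage II 9.72 and 14.3, those of stage III 27.5, 34.6 and 38.6, and those of stage IV 66.9, 83.4 and 68.0. Anti-IL5 libraries held 14.8, 11.8 and 11.8 CPM at stage I, 20.2 and 12.7 at stage II, 39.8, 40.4 and 48.6 at stage III, and 50.9, 72.4 and 77.4 at stage IV. Under each antibody every stage III library lay above all of stages I and II, and every stage IV library above all of stage III. The rise from stage I to IV was 3.35 ± 0.30 in isotype libraries (edgeR adjusted p = 2.66e-09), a fold of 10.2, and 2.39 ± 0.29 under anti-IL5 (edgeR adjusted p = 2.68e-07), a fold of 5.24. The largest of the 3 steps under each antibody was that from stage II to III, at 1.48 ± 0.33 (edgeR adjusted p = 0.00127) and 1.39 ± 0.32 (edgeR adjusted p = 0.00159). From stage III to IV Nfkb2 rose by 1.12 ± 0.27 in isotype libraries (edgeR adjusted p = 0.00302), and its change under anti-IL5 was 0.64 ± 0.27 (edgeR adjusted p = 0.0912). Part of its exons lies over exons of Psd on the opposite strand, and the libraries do not mark strand. Psd had 1 to 34 counts per library, and Nfkb2 32 to 1101.

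Relb (chr7:19606217-19629438, minus strand) encodes the partner of p52 and had the steepest course of the 5 subunits. Isotype libraries held 1.18, 1.15 and 1.79 CPM at stage I, 2.87 and 2.26 at stage II, 7.00, 12.6 and 8.72 at stage III, and 20.6, 26.0 and 37.2 at stage IV. Anti-IL5 libraries held 1.89, 1.52 and 0.389 CPM, then 4.58 and 2.72, then 11.2, 13.3 and 15.0, then 18.0, 33.6 and 39.5. No library overlapped with one of the stage before under either antibody, at steps where 39.1% to 58.6% of all genes did not overlap. The whole rise was 4.34 ± 0.44 in isotype libraries (edgeR adjusted p = 1.53e-08), a fold of 20.2, and 4.59 ± 0.45 under anti-IL5 (edgeR adjusted p = 1.19e-08), a fold of 24.1. It passed at stages II to III (1.88 ± 0.47 and 1.85 ± 0.46) and at stages III to IV (1.56 ± 0.37 and 1.21 ± 0.36) under isotype and anti-IL5, respectively. The step from stage I to II passed under anti-IL5 (1.53 ± 0.49, edgeR adjusted p = 0.0447) and not under isotype (0.89 ± 0.50, edgeR adjusted p = 0.281). Their difference, 0.63 ± 0.71, did not pass (edgeR adjusted p = 1). Under anti-IL5, 3 steps rested on single libraries. The call at stages I to II ended without library 2 or 3 of stage I or library 1 of stage II (highest edgeR adjusted p = 0.372), that at stages II to III without library 2 of stage II (0.0509), and that at stages III to IV without library 1 or 2 of stage III or 2 or 3 of stage IV (highest 0.102).

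Rela (chr19:5637483-5648130, plus strand) encodes p65, the main activating subunit. Isotype libraries held 75.6, 70.0 and 69.3 CPM at stage I, 99.8 and 74.7 at stage II, 129, 144 and 137 at stage III, and 213, 209 and 210 at stage IV. Anti-IL5 libraries held 69.1, 77.9 and 74.7 CPM, then 104 and 88.3, then 155, 151 and 176, then 196, 182 and 231. Stages III and IV separated from each other and from the earlier stages under both antibodies. Rela rose from stage I to IV by 1.56 ± 0.13 in isotype libraries (edgeR adjusted p = 1.24e-09), a fold of 2.94, and by 1.46 ± 0.13 under anti-IL5 (edgeR adjusted p = 4.34e-09), a fold of 2.75. At stages II to III it rose by 0.65 ± 0.15 and 0.74 ± 0.15. Without isotype library 2 of stage II the first of these calls ended (edgeR adjusted p = 0.0513). At stages III to IV it rose by 0.62 ± 0.13 in isotype libraries, and the change under anti-IL5 was 0.34 ± 0.13 (edgeR adjusted p = 0.0627).

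Nfkb1 (chr3:135584655-135691547, minus strand) encodes p105 and p50, the usual partner of p65. It held 109, 127 and 133 CPM in the isotype libraries of stage I, 154 and 147 at stage II, 212, 191 and 176 at stage III, and 198, 240 and 252 at stage IV. Under anti-IL5 it held 141, 143 and 138 CPM, then 153 and 175, then 174, 202 and 164, then 183, 205 and 204. No adjacent step passed (0.36 ± 0.14 at stages II to III in isotype libraries, edgeR adjusted p = 0.0568, or 0.0374 without library 3 of stage III), but stage IV lay above stage I in every library. The whole rise was 0.90 ± 0.13 in isotype libraries (edgeR adjusted p = 2.41e-06), a fold of 1.87, and 0.49 ± 0.13 under anti-IL5 (edgeR adjusted p = 0.00224), a fold of 1.40.

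Rel (chr11:23736847-23770970, minus strand) encodes c-Rel, the subunit best known from lymphocytes, and was low throughout. Isotype libraries held 18.0, 8.54 and 15.2 CPM at stage I, 13.3 and 14.3 at stage II, 19.98, 15.9 and 12.6 at stage III, and 10.8, 5.38 and 5.99 at stage IV. Anti-IL5 libraries held 17.9, 13.2 and 15.6 CPM, then 21.9 and 13.9, then 25.2, 22.6 and 7.83, then 12.3, 13.3 and 6.11. In isotype libraries Rel fell from stage III to IV by 1.13 ± 0.40 on the log2 scale (edgeR adjusted p = 0.0333), with no overlap, and from stage I to IV by 0.92 ± 0.40 (edgeR adjusted p = 0.0473), where isotype library 2 of stage I lay below library 1 of stage IV. The first call ended without library 1 or 2 of stage III or 2 or 3 of stage IV (highest edgeR adjusted p = 0.131), and the second without library 1 or 3 of stage I or 2 or 3 of stage IV (highest 0.184). Under anti-IL5 the values were -0.81 ± 0.39 and -0.56 ± 0.39 and did not pass (edgeR adjusted p = 0.148 and 0.22, the first 0.0258 without library 3 of stage III).

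Nfkbia (chr12:55489410-55492647, minus strand), whose product IkB-alpha retains p65 in the cytoplasm and whose transcription is a classical NF-kB feedback, had its lowest group mean at stage IV under each antibody, as Rel did. Isotype libraries held 290, 170 and 292.6 CPM at stage I, 464 and 259 at stage II, 387, 305.1 and 376 at stage III, and 188, 154 and 187 at stage IV. Anti-IL5 libraries held 430, 341 and 345 CPM, then 416 and 413, then 371, 330 and 333, then 257, 211 and 309.2. Stage IV lay below stage III in every library under both antibodies. In isotype libraries the fall from stage III to IV was -1.02 ± 0.21 (edgeR adjusted p = 0.000684), to 0.495 of the stage III level. Under anti-IL5 it was -0.41 ± 0.21 and did not pass (edgeR adjusted p = 0.168), and the difference between the 2 steps, 0.60 ± 0.29, did not pass either (edgeR adjusted p = 0.491). Over the whole course Nfkbia fell by 0.51 ± 0.21 on the log2 scale in isotype libraries (edgeR adjusted p = 0.0357), with overlap through isotype library 2 of stage I, and by 0.52 ± 0.21 under anti-IL5 (edgeR adjusted p = 0.0335), without overlap. The first call ended without isotype library 1 or 3 of stage I or 2 or 3 of stage IV (highest edgeR adjusted p = 0.151), and the second without anti-IL5 library 1 of stage I or 1 or 2 of stage IV (highest 0.15).

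Nfkbie (chr17:45555703-45563169, plus strand) encodes IkB-epsilon, an inhibitor that acts with slower kinetics than IkB-alpha. Isotype libraries held 18.8, 10.5 and 19.7 CPM at stage I, 24.1 and 27.2 at stage II, 49.5, 54.3 and 49.3 at stage III, and 88.5, 77.2 and 56.1 at stage IV. Anti-IL5 libraries held 22.9, 24.8 and 28.7 CPM, then 37.4 and 36.8, then 76.5, 68.0 and 76.2, then 68.4, 95.5 and 90.5. From stage I to IV its change was thus opposite to that of Nfkbia, while both had higher group means at stage II than at stage I. Nfkbie rose from stage I to IV by 2.17 ± 0.21 in isotype libraries (edgeR adjusted p = 1.05e-08), a fold of 4.51, and by 1.74 ± 0.21 under anti-IL5 (edgeR adjusted p = 2.78e-07), a fold of 3.33. The step from stage II to III was 0.99 ± 0.24 and 0.99 ± 0.23, with edgeR adjusted p = 0.00238 and 0.00193. The step from stage III to IV was 0.53 ± 0.20 in isotype libraries (edgeR adjusted p = 0.0459), a call that ended without any of the stage III isotype libraries or without library 1 or 2 of stage IV (highest edgeR adjusted p = 0.207). Under anti-IL5 that step was 0.21 ± 0.20 (edgeR adjusted p = 0.504).

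Nfkbiz (chr16:55811375-55838899, minus strand) encodes IkB-zeta, a nuclear cofactor of p50 at secondary response genes. Isotype libraries held 20.9, 11.5 and 18.0 CPM at stage I, 13.5 and 14.3 at stage II, 43.8, 30.7 and 48.7 at stage III, and 23.8, 14.4 and 23.5 at stage IV. Anti-IL5 libraries held 18.1, 16.5 and 10.8 CPM, then 25.1 and 17.9, then 62.4, 37.9 and 22.5, then 16.9, 10.6 and 4.22. The group mean was highest at stage III under both antibodies. Nfkbiz rose from stage II to III in isotype libraries by 1.56 ± 0.46 (edgeR adjusted p = 0.0108), a call that ended without either stage II library (highest edgeR adjusted p = 0.0714). The same step under anti-IL5 was 0.93 ± 0.44 (edgeR adjusted p = 0.102, or 0.0388 without library 3 of stage III). From stage III to IV it fell under anti-IL5 by 1.96 ± 0.40 on the log2 scale (edgeR adjusted p = 0.001), a call that held without any 1 library, and the value in isotype libraries was -0.997 ± 0.39, without overlap (edgeR adjusted p = 0.0523, or 0.0411 without library 2 of stage III). DESeq2 and limma-voom called that fall in isotype libraries (adjusted p = 0.0396 and 0.0253). The difference between these 2 falls, -0.97 ± 0.55, did not pass (edgeR adjusted p = 0.585). From stage I to IV Nfkbiz was 0.29 ± 0.39 in isotype libraries and -0.53 ± 0.40 under anti-IL5 (edgeR adjusted p = 0.529 and 0.259, the latter 0.0436 without library 1 of stage IV).

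Bcl3 (chr7:19808462-19822770, minus strand), whose product binds p50 and p52 homodimers in the nucleus, stayed at or under 7.57 CPM in every library before stage IV. Isotype libraries held 4.58, 0.104 and 1.23 CPM at stage I, 2.87 and 4.19 at stage II, 0.891, 2.97 and 7.00 at stage III, and 20.8, 39.6 and 26.4 at stage IV. Anti-IL5 libraries held 0.710, 0.761 and 4.67 CPM, then 0.255 and 2.72, then 1.57, 4.13 and 7.57, then 19.9, 22.1 and 15.7. Isotype library 2 of stage I and anti-IL5 library 1 of stage II held fewer than 3 counts. Every stage IV library lay above every earlier one. Bcl3 rose from stage III to IV in isotype libraries by 2.98 ± 0.84 (edgeR adjusted p = 0.0095), a fold of 7.91, and the value under anti-IL5 was 2.11 ± 0.81 (edgeR adjusted p = 0.0662, limma-voom adjusted p = 0.00758). From stage I to IV it rose by 3.81 ± 0.88 and 3.21 ± 0.87 (edgeR adjusted p = 0.000755 and 0.00329). Its SE was the widest of the 10 genes in each of these contrasts.

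Tnfaip3 (chr10:19000910-19015657, minus strand) encodes A20. Isotype libraries held 89.2, 16.7 and 57.9 CPM at stage I, 50.9 and 26.4 at stage II, 135, 87.1 and 113 at stage III, and 225, 211 and 302 at stage IV. Anti-IL5 libraries held 91.9, 45.4 and 28.7 CPM, then 55.8 and 51.6, then 145, 97.6 and 79.5, then 155, 113 and 141. Stage I libraries spread widely under both antibodies, and isotype stage IV stood above every other group. Tnfaip3 rose from stage I to IV by 2.17 ± 0.46 in isotype libraries (edgeR adjusted p = 0.000396), a fold of 4.49, and by 1.31 ± 0.45 under anti-IL5 (edgeR adjusted p = 0.017), a fold of 2.47. The second call ended without anti-IL5 library 2 or 3 of stage I (highest edgeR adjusted p = 0.0778). The step from stage II to III passed in isotype libraries (1.53 ± 0.53, edgeR adjusted p = 0.0289) but not without either stage II library or library 1 of stage III (highest edgeR adjusted p = 0.242). Under anti-IL5 that step was 1.00 ± 0.51 (edgeR adjusted p = 0.132), without overlap. From stage III to IV the value was 1.14 ± 0.44 in isotype libraries, also without overlap (edgeR adjusted p = 0.0553, limma-voom adjusted p = 0.0293), and 0.35 ± 0.44 under anti-IL5 (edgeR adjusted p = 0.623).

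By single steps, 0 of the 10 genes passed from stage I to II in isotype libraries, where edgeR called 7.39% of all genes higher and 3.25% lower. There 3 of the 10 had an unadjusted p under 0.05 (Nfkb2, Nfkbia and Nfkbie), DESeq2 and limma-voom also called 0, and without isotype library 2 of stage II Nfkbia passed (edgeR adjusted p = 0.0177). Under anti-IL5 1 gene passed, Relb, against 7.27% of all genes higher and 5.17% lower. From stage II to III 6 genes rose in isotype libraries and 4 under anti-IL5 (Nfkb2, Rela, Relb and Nfkbie), against 19% and 19.8% of all genes, and 0 fell, against 18% and 19.7%. Without isotype library 2 of stage II the 6 became 3. From stage III to IV 5 genes rose (against 14.8%) and 2 fell (against 18.8%) in isotype libraries. Under anti-IL5 Relb rose (against 10.4%) and Nfkbiz fell (against 13.4%). This count of 2 became 1 without anti-IL5 library 1 or 2 of stage III or 2 or 3 of stage IV.

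**Figure D2:**
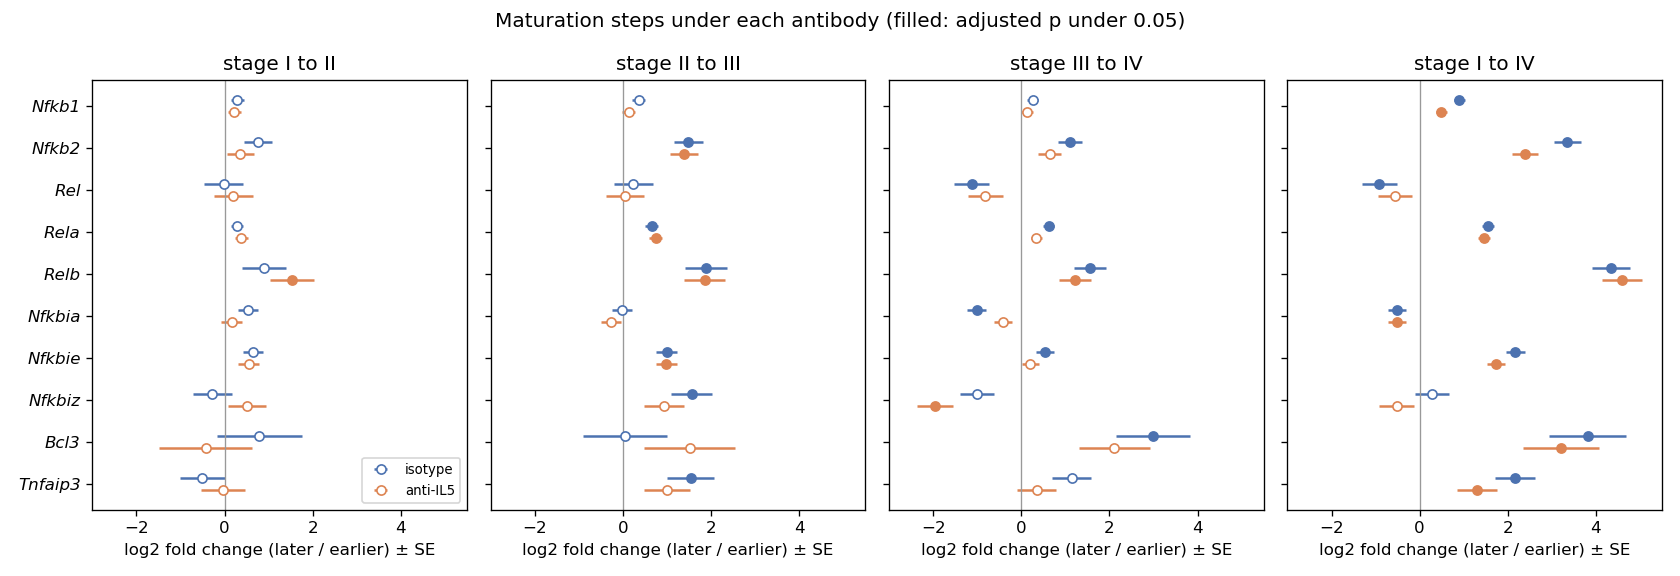
Log2 fold change ± SE (horizontal axis) of the 10 genes (vertical axis) for each step of maturation and for stage I to IV, by antibody, with filled points at an adjusted p under 0.05. Isotype values are blue and anti-IL5 values orange. All filled points at stages II to III lie to the right, 6 for isotype and 4 for anti-IL5, while at stages III to IV Rel and Nfkbia (isotype) and Nfkbiz (anti-IL5) are filled to the left.

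Levels of different genes can be compared only per length, here as mean CPM per kilobase of exon. The length joins all annotated exons of a gene, from 1610 bases for Nfkbia to 12061 for Nfkb1. It can exceed the length of the transcript present, so the order between genes depends on it. At stage I in isotype libraries the order was Nfkbia at 156, Rela at 23.3, Nfkb1 at 10.2, Tnfaip3 at 7.55, Nfkbie at 5.36, Nfkbiz at 3.35, Rel at 1.86, Nfkb2 at 1.54, Bcl3 at 0.796 and Relb at 0.353 CPM per kilobase. Nfkbia and Rela stood apart from their neighbours, and from Nfkb1 down the libraries of each neighbouring pair overlapped. At stage IV the order was Nfkbia at 109, Rela at 68.6, Tnfaip3 at 34.1, Nfkbie at 24.3, Nfkb1 at 19.1, Nfkb2 at 15.9, Bcl3 at 11.7, Relb at 7.18, Nfkbiz at 4.1 and Rel at 0.99 CPM per kilobase. There the top 3 each stood apart from the next, Nfkbie to Relb overlapped pairwise, and Nfkbiz and Rel stood apart at the bottom. The stage IV order under anti-IL5 also began with Nfkbia at 161 and Rela at 66.1 and ended with Nfkbiz at 2.11 and Rel at 1.41 CPM per kilobase, with Nfkbie at 27.9 above Tnfaip3 at 18.9.

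For anti-IL5 against isotype within a stage, none of the 10 genes passed by edgeR, while fitted folds ran from 0.436 for Bcl3 at stage II to 1.79 for Nfkb2 at stage I. Of 40 tests, 10 genes in each of 4 stages, edgeR called 0 and limma-voom 0, DESeq2 called 1 (Nfkbie at stage I), and 7 had an unadjusted p under 0.05, with a lowest adjusted p of 0.0901 for Nfkbie at stage I. Of all genes it called 4.42% at stage I, 1.75% at stage II, 6.37% at stage III and 1.05% at stage IV. Averaged over the 4 stages, 2 of the 10 passed, Nfkbia and Nfkbie, both higher, against 8.59% of all genes higher and 18.9% in either direction. A count of 2 in 10 is near that background, and the median of the 10 genes was 0.17, against -0.005 for all genes.

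Nfkbie values under anti-IL5 were higher by 0.64 ± 0.21, 0.53 ± 0.25, 0.53 ± 0.20 and 0.20 ± 0.20 at stages I to IV, without overlap at the first 3 of these stages, where 28.4%, 33.8% and 26% of all genes did not overlap. The mean over stages was 0.47 ± 0.11 (edgeR adjusted p = 0.00396), and it held in all 22 fits that left out 1 library (highest edgeR adjusted p = 0.00923). Means over stages take libraries of equal number at different stages as independent. If these share a mouse, the SE may be too small, and leaving out 1 library does not address that. Nfkbia was higher by 0.57 ± 0.21 at stage I and 0.56 ± 0.21 at stage IV, both without overlap, by 0.20 ± 0.25 at stage II, and its value at stage III was -0.05 ± 0.21. Its mean over stages was 0.32 ± 0.11 (edgeR adjusted p = 0.0466). That call ended in 17 of the 22 fits without 1 library (highest edgeR adjusted p = 0.139). It stayed in the 5 that left out isotype library 1 or 3 of stage I, 1 of stage II or 1 of stage III, or anti-IL5 library 2 of stage IV. The summed neutrophil genes were also higher under anti-IL5, at 6720 to 6860 CPM against 3960 to 5600 at stage II and 7360 to 8580 against 4870 to 5890 at stage IV, and overlapped at stage I (2020 to 5450 against 2190 to 2870) and stage III (10300 to 13300 against 6700 to 10600). Their part in these changes was not tested.

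By edgeR with all libraries, the other 8 genes did not pass at any stage or in the mean. Nfkb2 under anti-IL5 was 0.84 ± 0.29 higher at stage I (edgeR adjusted p = 0.11), without overlap, and its mean over stages was 0.38 ± 0.15 (edgeR adjusted p = 0.0785), which DESeq2 called (0.38, adjusted p = 0.0452). Isotype library 1 of stage I bears on both values, since without it the edgeR adjusted p was 0.0358 and 0.0216, and the mean over stages also passed without anti-IL5 library 2 of stage II (0.0453). Other libraries bear on them in the opposite direction. Without isotype library 2 of stage I the stage I value was 0.52 (edgeR adjusted p = 0.43), and without anti-IL5 library 1 of stage II the mean over stages was 0.29 (edgeR adjusted p = 0.231). At stage IV Tnfaip3 was -0.85 ± 0.44 under anti-IL5 (edgeR adjusted p = 0.607, or 0.0238 when only these 2 groups were fitted), with 113 to 155 CPM against 211 to 302 and no overlap. Nfkbiz was -0.97 ± 0.40 there (edgeR adjusted p = 0.412), with overlap. At stage IV 2 of the 10 genes did not overlap, Nfkbia and Tnfaip3, against 15.8% of all genes. At stages I, II and III the counts without overlap were 4, 4 and 3, against 28.4%, 33.8% and 26% of all genes, and nothing is read from these counts. Rela stayed between -0.05 and 0.23 at all stages, Nfkb1 between -0.22 and 0.19, Rel between 0.16 and 0.51, and Relb between -0.13 and 0.50.

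**Figure D3:**
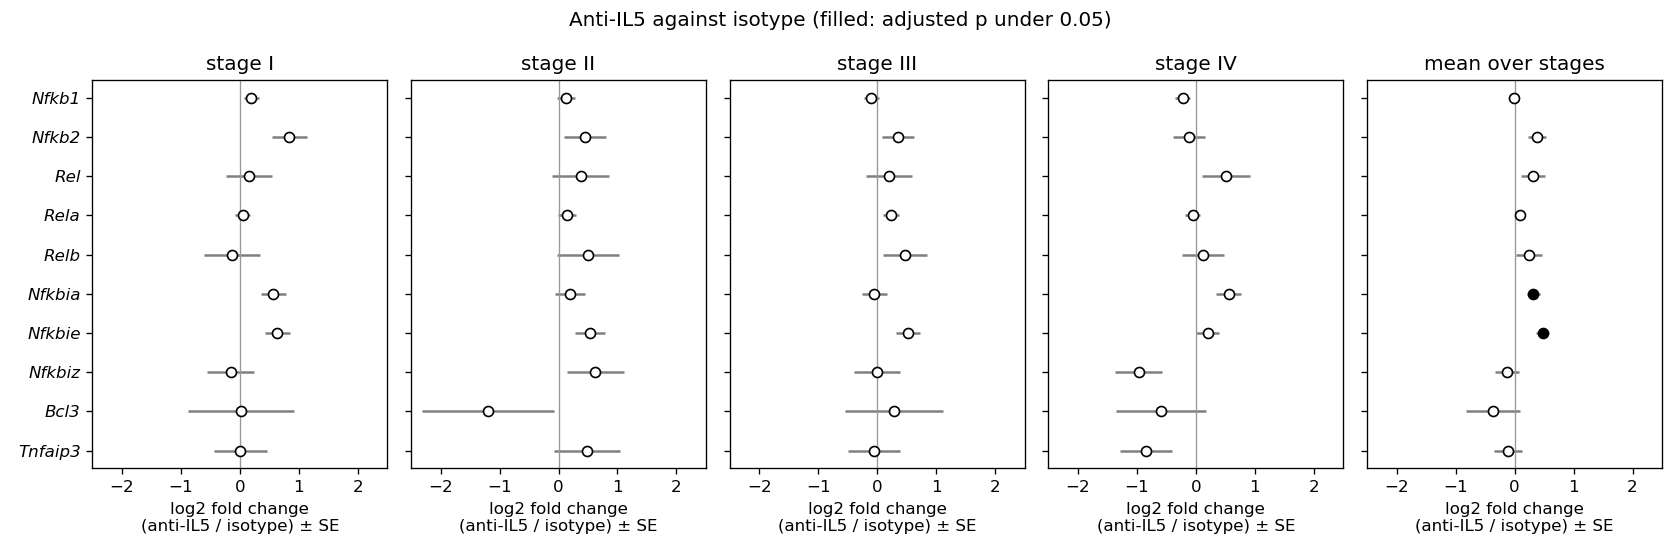
Log2 fold change ± SE (horizontal axis) of anti-IL5 against isotype for the 10 genes (vertical axis) at each stage and as the mean over stages, with filled points at an adjusted p under 0.05. Only Nfkbia (0.32 ± 0.11) and Nfkbie (0.47 ± 0.11) are filled, both in the mean over stages.

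Whether the antibody's effect differed between stages was tested directly. edgeR called 0 of the 10 genes for a difference between adjacent stages, with 0 of 12387 genes called between stages I and II and between II and III, and 79 genes (0.638%) between stages III and IV. The F test over all 4 stages called 0 of the 10 and 1.07% of all genes. The unadjusted p of the 10 genes in it ran from 0.107 for Nfkbiz to 0.915 for Rel, with 0 under 0.05, and 0 also for each of the 3 differences. DESeq2 and limma-voom called 0 of the 10 in all of these tests. So the stage IV values of Tnfaip3 and Nfkbiz were not shown to differ from those at other stages.

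Genes around the 10 were read from 4 lists. Their counts stand beside the shares of all tested genes that rose and fell. In isotype libraries these shares were 7.39% and 3.25% at stages I to II and 19% and 18% at II to III. At III to IV they were 14.8% and 18.8%, and at I to IV 32.3% and 33.9%. Under anti-IL5 the shares, in the same order, were 7.27% and 5.17%, 19.8% and 19.7%, 10.4% and 13.4%, and 30.7% and 32.8%. Of 22 upstream genes (adaptors, kinases and IKK subunits, all tested), 15 rose and 1 fell (Irak3) from stage I to IV in isotype libraries, and 13 rose and 0 fell under anti-IL5. The list's median was 1.06 and 1.02 (all genes -0.045 and -0.058). Map3k14, which encodes the kinase NIK that drives p100 processing, rose by 3.10 ± 0.39 in isotype libraries, from 4.62 ± 1.73 to 39.6 ± 8.07 CPM (mean ± SD, n = 3), and by 3.17 ± 0.39 under anti-IL5. Birc3, a ubiquitin ligase (cIAP2) that holds NIK down, rose by 3.19 ± 0.23 and 2.79 ± 0.22, and Myd88, the adaptor of the IL-33 and IL-1 receptors, by 2.65 ± 0.20 and 2.16 ± 0.20. In isotype libraries Map3k14 and Birc3 rose by 1.501 ± 0.46 and 1.98 ± 0.25 at stages II to III. At stages III to IV they rose by 1.93 ± 0.37 and 0.94 ± 0.21. Nfkb2 and Relb also rose at both of these steps, where 19% and 14.8% of all genes did. A link between these genes was not tested. Of the upstream genes 10 rose and 1 fell at stages II to III, and 6 rose at stages III to IV. Under anti-IL5 these counts were 11 and 1, and 2. At stages I to II 1 rose in isotype libraries, and 2 rose and 1 fell under anti-IL5.

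Of 14 other IkB genes and ubiquitin editors, 11 rose and 1 fell (Tnip2) over the whole course in isotype libraries. Under anti-IL5 10 rose and 1 fell (Tnip2). Over the same course 32.3% of all genes rose and 33.9% fell in isotype libraries, and 30.7% and 32.8% under anti-IL5. Zfp36, which encodes the mRNA decay factor tristetraprolin, rose by 2.78 ± 0.25 and 2.49 ± 0.25, Zc3h12a, a ribonuclease gene, by 2.59 ± 0.50 and 1.99 ± 0.49, and Cyld, a deubiquitinase gene, by 2.01 ± 0.21 and 1.89 ± 0.21. In isotype libraries 1 gene of this list rose at stages I to II, 7 rose and 1 fell (Tnip2) at stages II to III, and 3 rose at stages III to IV. Under anti-IL5 the counts were 1 and 1, 6 and 1, and 3 and 0. Of 30 target genes, 28 were tested. In isotype libraries 16 rose and 6 fell from stage I to IV, and under anti-IL5 11 rose and 6 fell. The largest changes went both ways. Il1rn, the IL-1 receptor antagonist gene, rose by 8.82 ± 0.64 in isotype libraries, from 0.595 ± 0.263 to 285 ± 100.2 CPM (n = 3), the chemokine gene Cxcl2 by 5.54 ± 1.203, and the adhesion molecule gene Vcam1 fell by 6.22 ± 0.31. At single steps the targets counted 4 and 0, 6 and 0, and 4 and 5 (higher and lower, isotype), and 3 and 0, 5 and 2, and 5 and 5 (anti-IL5). Tnf was among those that fell at stages III to IV, by 2.03 ± 0.38 on the log2 scale in isotype libraries and by 2.61 ± 0.38 under anti-IL5.

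Of 13 receptor genes 10 were tested, and 5 rose and 2 fell from stage I to IV under each antibody. Of all genes 32.3% rose and 33.9% fell there in isotype libraries, and 30.7% and 32.8% under anti-IL5. Tlr4, the endotoxin receptor gene, rose by 3.71 ± 0.61 and 3.17 ± 0.60, Tnfrsf1b, encoding TNF receptor 2, by 2.19 ± 0.27 and 1.75 ± 0.27, and Il1rl1, encoding the IL-33 receptor ST2, by 2.04 ± 0.31 in isotype libraries, from 44.2 ± 3.90 to 182 ± 32.7 CPM (n = 3). At single steps the receptors counted 1 and 0, 4 and 0, and 3 and 5 higher and lower in isotype libraries, and 1 and 0, 2 and 0, and 2 and 4 under anti-IL5.

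Of the 74 tested genes of these lists, edgeR called 6.76% for anti-IL5 against isotype at stage I (4.42% of all genes), 0 at stage II (1.75%), 6.76% at stage III (6.37%), 1.35% at stage IV (1.05%) and 23% in the mean over stages (18.9%). At stage I 5 passed, all higher: Il1rn (3.45 ± 0.67, under 10 CPM in both groups), Tnf (1.47 ± 0.37, 28.0 ± 4.12 against 10.1 ± 2.38 CPM, n = 3), the interferon regulatory factor gene Irf1 (1.07 ± 0.22), Nfkbid, a further nuclear IkB gene (0.95 ± 0.27), and Tnfrsf1a, encoding TNF receptor 1 (1.36 ± 0.36). At stage II 0 passed by edgeR, with 3 upstream genes, 2 editors, 3 targets and 1 receptor at an unadjusted p under 0.05. At stage III Birc3 was higher (0.70 ± 0.21), and Tnip2, an A20-binding protein gene under 10 CPM in both groups (-0.97 ± 0.29), Vcam1 (-1.17 ± 0.24), the survival gene Bcl2l1 (-0.83 ± 0.24) and the decoy receptor gene Il1r2 (-2.26 ± 0.43) were lower. At stage IV Bcl2l1 was lower (-1.13 ± 0.24). In the mean over stages 3 upstream genes (Birc3, Birc2 and Ikbkb) were higher and 0 lower, 1 editor (Zfp36) was higher and 1 (Tnip2) lower, 6 targets were higher and 3 lower, and 2 receptors were higher and 1 lower. Differences of the effect between adjacent stages passed in 0 genes of the 4 lists by edgeR, with at most 4 genes of any list at an unadjusted p under 0.05.

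Genes with the most similar course to each of the 10 were looked up over the 8 group means, by the root mean square difference of log2 CPM after centring, among 9099 candidates and for the 9 genes that spanned at least 1 log2 unit. For Rela these were Rhoa (0.058) and Washc4 (0.068), for Nfkbie Dgka (0.071) and Dennd1c (0.088), for Nfkb2 Tbc1d8 (0.127) and Sgms1 (0.151), and for Relb Dip2c (0.157) and Dennd3 (0.182). Rel and Nfkbia had the same first neighbour, Zfp873 (0.133 and 0.141), followed by Dars (0.142) and Clec12a (0.148). Tnfaip3 lay nearest to Itgb1 (0.181) and Dnajb2 (0.199), and Nfkbiz nearest to Ednra (0.199) and Trib1 (0.281). Bcl3 was the least matched, with Tspan13 at 0.499 and Ckb at 0.556. These are distances over 8 means of shared libraries and carry no test.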

How the data were processed

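RNA of 22 sorted bone marrow eosinophil libraries (17 cDNA amplification cycles, SMART-Seq v4 and Nextera XT, per the labels' protocols) was sequenced. The deposited files hold raw counts per gene symbol. STAR 2.6.1a and mm10 are named in the submitters' processing notes, and DESeq2 without a role. How reads were assigned to genes was not given in the sources used here. The 2 lines without a gene, for reads with no feature (12.65% to 22.11% of a file's counts) and ambiguous reads (1.86% to 2.39%), stayed out of library sizes and tests. No molecular identifiers are named, so reads are not independent molecules.

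Counts were fitted here with edgeR 4.0.16 (R 4.3.3; TMM, filterByExpr, robust quasi-likelihood test) in 1 model of 8 groups, with Benjamini-Hochberg adjustment over 12387 genes. The steps were tested on simulated data with independent libraries, which does not cover likeness between libraries of equal number. The 2-library groups of stage II borrow their spread from the others. p-values measure the spread between libraries, which may be technical, and libraries with equal numbers were taken as independent. Library numbers are those of the titles. The deposited files carry others, which match them one to one within an antibody (1, 2 and 3 are 2, 6 and 10 for isotype, and 4, 8 and 12 for anti-IL5) and are shared by none between antibodies, so a block within antibody is the same by either numbering and the block across antibodies rests on the titles alone. No 2 libraries of a group were copies (chi-square per gene 13.8 to 51.6 over 20 pairs). Exon lengths and positions are from GENCODE vM21 (GRCm38, the build mm10).

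Alternatives were DESeq2 1.42.0, RLE scaling, limma 3.58.1 with voom, no filter, a replicate block, only the groups compared, and leaving out each library. The genes, lists and alternatives were chosen with earlier results of these data known. All 10 genes are described, with their values in every library. From each list up to 3 called genes that reached a mean of 10 CPM in either group are named by size of change, and 2 nearest genes per member.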

Additional observations from a re-analysis of the deposited data

How the results depend on the processing

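Of the 39 called values of the 10 genes, 33 stayed called under every alternative run on them that kept all libraries of the groups compared. For the means over stages (Nfkbia and Nfkbie), the block within antibody and the fit of only the groups compared were not run. 0 values reversed under any alternative. Apart from left-out libraries, the number of genes called moved by over 1.5 times in these cases. For anti-IL5 at stage I it was 1 with DESeq2 (Nfkbie) and 1 with a replicate block (Nfkbia), against 0. At stage IV it was 1 when only those 2 groups were fitted (Tnfaip3, -0.85, adjusted p = 0.0238). For stages I to II in isotype libraries it was 1 with a replicate block and 1 with a block within antibody (Nfkbia in both). For stages I to II under anti-IL5 Relb was lost (0 called) with limma-voom, with the block within antibody and with only those groups. For stages III to IV under anti-IL5, 2 became 4 with limma-voom, 4 with the block within antibody and 5 with only those groups. Other calls that ended were Rela at stages II to III in isotype libraries with only those groups (adjusted p = 0.0595), Tnfaip3 at that step (0.0773) and over the whole anti-IL5 course (0.0503) without the filter, Nfkbie at stages III to IV in isotype libraries without the filter (0.0594) and with the block within antibody (0.0547), and Rel over the whole isotype course with limma-voom (0.0563). The same alternatives also made 29 calls that edgeR with all 22 libraries and no block did not make. From stage III to IV in isotype libraries Nfkbiz was called by DESeq2 (adjusted p = 0.0396), limma-voom (0.0253), both blocks (0.0232, and 0.00159 within antibody) and the fit of only those groups (0.013), and Tnfaip3 by limma-voom (0.0293), both blocks (0.0108 and 0.00535) and only those groups (0.00209). Under anti-IL5 at that step Bcl3 was called by limma-voom (0.00758), both blocks (0.0373 and 0.0267) and only those groups (0.00391), Nfkb2 by limma-voom (0.0233) and only those groups (0.0204), Nfkbia by the block within antibody (0.0412) and only those groups (0.03), and Rela by DESeq2 (0.0296). At stages II to III under anti-IL5 both blocks called Nfkbiz (0.047 and 0.00126), and the block within antibody (0.0202) and only those groups (0.0112) called Tnfaip3. The block within antibody called Nfkbiz over the whole anti-IL5 course (0.0175), and DESeq2 called Nfkb2 for anti-IL5 in the mean over stages (0.0452). The rest are among the changed counts above. The cause was not tested. Leaving out 1 library gave counts of 0 to 1 for anti-IL5 at stage I, 0 to 0 at stages II, III and IV, 1 to 3 for the mean over stages, 0 to 1 for stages I to II, 3 to 7 for II to III, 5 to 6 for III to IV and 7 to 9 for I to IV in isotype libraries, 0 to 1, 3 to 5, 1 to 3 and 7 to 8 under anti-IL5, and 0 to 0 for differences and interaction. RLE scaling moved the median of all genes by -0.102 over the whole isotype course. Libraries were correlated by their deviations from the group mean. Within an antibody, equal numbers at different stages gave r = 0.023 to 0.208 (median 0.112), above 0.1 in 16 of 30 pairs. Unequal numbers gave -0.16 to 0.125 (median -0.049), above 0.1 in 2 of 60 pairs, and 21 of 22 libraries correlated best with their own number. Equal numbers thus went with some likeness, which the main fit left out. The labels do not say whether they mark a shared mouse. Bcl3 had the fewest counts of the 10 genes over all libraries together and, in every comparison, the widest SE. At stage I, however, Relb had lower means than Bcl3, at 1.37 against 1.97 CPM (isotype) and 1.27 against 2.05 CPM (anti-IL5). Its SE for anti-IL5 against isotype there was 0.48, against 0.90 for Bcl3. The part of depth in the width of the SE was not tested.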

Other observations

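Isotype library 2 of stage I held the lowest value of its group of 3 for 8 of the 10 genes, all but 2, and anti-IL5 library 2 of stage II the lower value of its pair for 8 of 10. In isotype library 2 of stage I, 0.104 CPM of Bcl3 and 16.7 CPM of Tnfaip3 lay furthest below the other isotype libraries of that stage on the log2 scale. Of the remaining IkB genes, Nfkbib, which encodes IkB-beta, rose from 43.6 ± 6.81 to 79.1 ± 7.60 CPM between stages I and IV in isotype libraries (n = 3) and from 40.0 ± 3.32 to 74.0 ± 7.23 CPM under anti-IL5 (0.86 ± 0.15 and 0.89 ± 0.15, edgeR adjusted p = 3.34e-05 and 2.72e-05). Nfkbid, encoding the nuclear IkB-NS, had its main step earlier, from 37.8 ± 7.15 CPM (n = 3) at stage I to 99.4 ± 32.7 (n = 2) at stage II in isotype libraries (1.39 ± 0.29, edgeR adjusted p = 0.00361).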
